A study of Mus musculus with 41 samples.

Results

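Ribosome footprints from mouse embryonic fibroblasts (MEFs) labelled *Upf2*-/- were compared with those from control MEFs of the same sequencing pool. The 6 libraries, 3 for each genotype, were chosen by their labels and belong to batch 5 of a series of 41 libraries. All 6 came from primary C57BL/6 cells, each from a single embryo at E13 that was not sexed, and all carried the n-Tr20 B6J/B6J genotype and the tamoxifen-inducible transgene CAG-CreER. Cells labelled *Upf2*-/- were homozygous for a floxed *Upf2* allele and control cells carried the transgene alone. Both received 1 µM 4-hydroxytamoxifen for 48 hr, and 2 dishes of cells from 1 embryo were pooled into 1 replicate, collected at the first passage. A footprint is the stretch of mRNA that a translating ribosome shields from nuclease, so the count of footprints on a coding sequence follows both the amount of the mRNA and how often it is translated. Levels are given as CPM, the counts of a gene scaled with TMM factors to a library of 1000000 footprints, and differences as the log2 fold change of libraries labelled *Upf2*-/- over control.

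UPF2 belongs to the core of nonsense-mediated decay (NMD), the pathway that destroys mRNAs whose stop codon lies upstream of an exon junction complex. It bridges the helicase UPF1 and the junction-bound protein UPF3, which triggers phosphorylation of UPF1 by the kinase SMG1 and the recruitment of effectors such as SMG5 and SMG6, the last steps before the mRNA is cut or decapped. NMD also degrades normal mRNAs with upstream open reading frames, long 3′ ends or poison exons, among them those of several NMD factors, stress regulators and splicing factors.

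The libraries labelled *Upf2*-/- held 5782990, 11061625 and 7282755 footprints in genes, and the control libraries 14360171, 15602201 and 14274790, so depth differed with genotype. The first principal component held 72.3% of the variance and separated the genotypes. Y-linked footprints were present in all 3 libraries labelled *Upf2*-/- (between 217 and 233 CPM) and in control library 3 (201 CPM), but control libraries 1 and 2 had 0.418 and 2.24 CPM. The sex of the embryo therefore overlapped with genotype, and the presence of Y-linked footprints was also fitted as a covariate, with its counts given beside those it moved by more than 1.5 times among counts of at least 5. The control libraries stood in 3 sequencing pools. Libraries of the same number differed across pools by little more than counting noise (chi-square per gene between 1.10 and 1.19, against between 4.83 and 12.6 for different numbers in the *Upf2* pool), and were taken to be the same libraries sequenced again. Fibroblast markers were abundant in every library, with a summed level of between 45478 and 49066 CPM over 15 genes in control and between 51553 and 55057 CPM in the others.

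The targeted gene did not show a loss. *Upf2* (ENSMUSG00000043241, chromosome 2 from 5951469 to 6056703 on the plus strand of GRCm38) had 54.9, 49.2 and 58.3 CPM in control libraries 1 to 3 and 115, 113 and 119 CPM in the libraries labelled *Upf2*-/-. The groups did not overlap, and the difference was 1.09 on the log2 scale (SE 0.08, adjusted p = 3.12e-06), a 2.13-fold higher level. The mRNA of *Upf2* was also higher in cells with this label, by 1.33 (adjusted p = 0.0031). The counts sum footprints over the whole coding sequence, so footprints from deleted and retained exons cannot be told apart here, and the deleted exons are not given in the sources used here. The label is therefore not checked by the level of its own gene, and every direction below is a direction in the libraries labelled *Upf2*-/-.

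Footprints changed on a large share of genes. Of 12166 genes tested with edgeR's quasi-likelihood test, 5279 (43.4%) passed an adjusted p of 0.05, with 2715 (22.3%) higher and 2564 (21.1%) lower. The groups did not overlap for 54.1% of the genes tested. Most differences were small, with a median size of 0.53 on the log2 scale among the called genes. A difference of at least 1 was reached by 513 genes called higher and 433 called lower, and a difference of at least 2 by 124 and 64 genes. With Y-linked footprints as a covariate, 3406 genes were called.

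Most of the NMD machinery was higher. Of 16 NMD factors tested, 12 were called higher and none lower, against 22.3% and 21.1% of all genes tested, with a median difference of 0.63 against 0.00 over all genes tested. *Smg9*, a regulatory partner of the kinase SMG1, had 19.4, 17.4 and 19.8 CPM in control and 62.8, 62.6 and 59.0 CPM in libraries labelled *Upf2*-/- (log2 fold change 1.71, adjusted p = 3.47e-07). *Smg1* itself had 105, 106 and 114 CPM in control and 304, 297 and 285 CPM in the other libraries, a difference of 1.45 (adjusted p = 1.66e-07). *Upf1*, the helicase at the centre of the pathway, had 206, 216 and 203 CPM in control and 464, 444 and 470 CPM in the other group, a difference of 1.14 (adjusted p = 4.33e-07). In all 3 genes every library labelled *Upf2*-/- lay above every control library.

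The factors that act after UPF1 phosphorylation followed the same direction. The endonuclease *Smg6* rose by 0.95 on the log2 scale (adjusted p = 2.51e-05) and the phosphatase adaptor *Smg5* by 0.87 (adjusted p = 1.41e-05). *Upf3b*, which ties UPF2 to the exon junction complex, had 17.2, 16 and 19.2 CPM in control and 33.9, 29.6 and 27.7 CPM in libraries labelled *Upf2*-/- (log2 fold change 0.80, adjusted p = 0.000192). Its relative *Upf3a* differed by 0.31 (adjusted p = 0.0279), a call that was lost with Y-linked footprints as a covariate (adjusted p = 0.25). Smaller increases were called for the helicase *Dhx34* (0.46), for *Nbas* (0.34) and for *Pnrc2* (0.34), and none of these 3 was called with the covariate (adjusted p between 0.0502 and 0.189), under which 8 of the 16 factors were called.

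Members outside this pattern were the release factors and the cap-binding protein. *Etf1* and *Gspt1*, which encode the termination factors eRF1 and eRF3a, differed by -0.01 and 0.05 (adjusted p = 0.963 and 0.527). *Ncbp1* differed by 0.12 (adjusted p = 0.106) and *Smg8*, the other partner of SMG1, by -0.05 (adjusted p = 0.677). In *Smg8* the control libraries had between 49.6 and 51.1 CPM and the others between 44.4 and 53.2 CPM, so the groups overlapped.

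**Figure D1:**
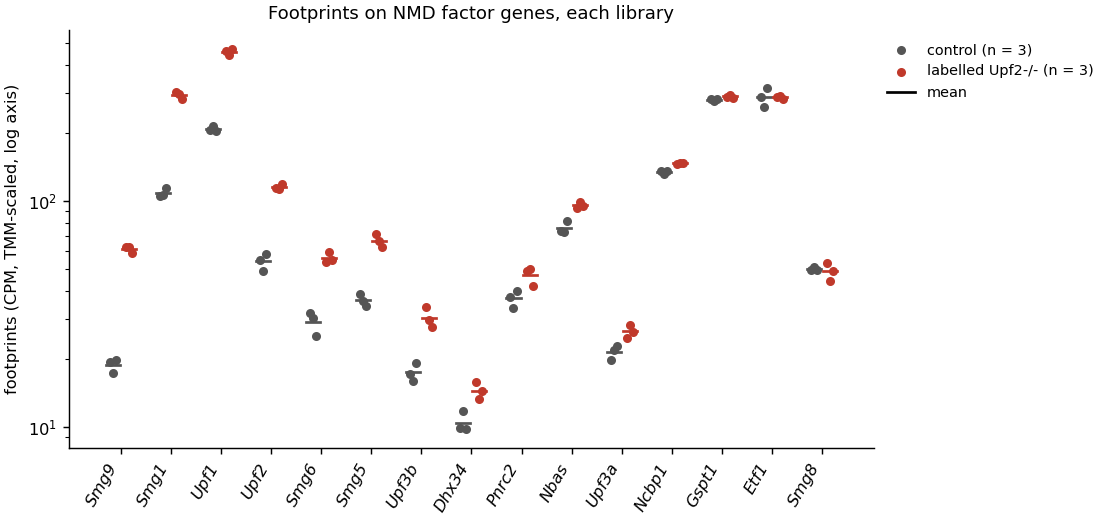
Footprints on 15 of the 16 NMD factor genes in each library, on a log axis in CPM, with grey points for the 3 control libraries, red points for the 3 libraries labelled *Upf2*-/- and a bar at each mean. *Smg9*, *Smg1*, *Upf1* and *Upf2* show the widest gaps, while *Etf1* and *Smg8* overlap between groups.

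The NMD factor mRNAs gave values of the same sign for the called factors with 1 exception. In mRNA, 8 of the 16 factors were called higher, against 13.3% of all 15918 genes tested, and none lower, against 6.84%. *Smg9* differed by 1.86 in mRNA, *Smg5* by 1.47, *Smg6* by 1.24, *Smg1* by 1.20 and *Upf1* by 0.96. The exception, *Nbas*, had an mRNA difference of -0.11 (adjusted p = 0.60). The mRNA libraries are a separate set of 6 in which Y-linked transcripts marked *Upf2*-/- libraries 1 and 2 and control library 3, so sex was distributed differently there.

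Genes described in textbooks as natural NMD targets were mostly higher. Of 33 tested, 27 (81.8%) were called higher against 22.3% of all genes tested, 3 were called lower, and the median difference was 0.72. The Gadd45 family of stress-inducible genes, which act on MAP kinase signalling and growth arrest, belongs to this list. *Gadd45g* had 172, 211 and 167 CPM in control and 568, 737 and 861 CPM in libraries labelled *Upf2*-/- (log2 fold change 1.98, adjusted p = 2.69e-06), and its mRNA differed by 3.83. *Gadd45b* rose by 1.27 (adjusted p = 7.3e-06) and *Gadd45a* by 1.03 (adjusted p = 5.1e-05) in footprints, and by 2.17 and 1.63 in mRNA. No control library reached the lowest library labelled *Upf2*-/- for any of these 3 genes.

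Other targets in the list carry poison exons or upstream reading frames. *Hnrnpdl*, an RNA-binding protein that limits its own mRNA through an alternative 3′ exon, rose from 52.5 ± 4.41 to 132 ± 8.73 CPM (SD, n = 3), a difference of 1.34 (adjusted p = 1.32e-06). *Rpl12* rose by 2.02 in footprints (adjusted p = 5.49e-06) and by 2.42 in mRNA, and *Rpl10a* by 2.08 (adjusted p = 1.48e-06) and 0.40. Both ribosomal protein genes had fewer than 43 CPM in every library, and genes of this class share reads with near-identical pseudogenes, so their values are uncertain. *Eif4a2*, an RNA helicase of initiation, rose by 0.56 (adjusted p = 0.000196) and by 0.68 in mRNA.

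The exceptions in the target list were a kinase, a cell cycle inhibitor and a subunit of ATP synthase. *Uhmk1* had 34.4, 30.9 and 33.5 CPM in control and 15.7, 15.8 and 17.8 CPM in libraries labelled *Upf2*-/-, a difference of -1.001 on the log2 scale (adjusted p = 2.22e-05). *Cdkn1a*, the p53-induced inhibitor of cyclin-dependent kinases, differed by -0.46 (adjusted p = 0.000599) and *Atp5pb* by -0.23 (adjusted p = 0.0243). *Azin1*, *Oaz1* and *Map3k14* did not pass the test, with differences of 0.04, 0.25 and -0.09.

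Many splicing regulators hold poison exons, and a majority of those tested were called higher, beside 22.3% higher and 21.1% lower of all genes tested. Of 13 SR factors, 8 were called higher and none lower (5 higher with Y-linked footprints as a covariate), and of 26 hnRNP genes 17 were called higher and none lower. *Srsf4* rose from 41.2 ± 2.86 to 69.3 ± 2.05 CPM (SD, n = 3), a difference of 0.75 (adjusted p = 2.51e-05), with 0.96 in mRNA. *Tra2b* rose by 0.74 (adjusted p = 0.000575) and *Hnrnph3* by 0.80 (adjusted p = 0.000157), and both were also called higher in mRNA. Of 42 subunits of the core spliceosome, 24 were called higher and 2 lower (none lower with the covariate), with a median of 0.25. In mRNA 2 SR factors and 2 hnRNP genes were called higher, and 2 of each were called lower, against 13.3% and 6.84% of all genes tested. Among 10 exon junction complex genes 4 were called higher, against the same 22.3%, which besides *Upf3b* were the apoptosis- and splicing-associated *Acin1* (0.55), the core subunit *Casc3* (0.50) and the splicing activator *Rnps1* (0.38).

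Several regulators of the integrated stress response were higher in libraries labelled *Upf2*-/-. This response reduces initiation through phosphorylation of eIF2 and favours translation of the transcription factor ATF4. Of 21 members 11 were called higher, against 22.3% of all genes tested, and none lower, with a median of 0.39. *Atf4* had 63.4, 56 and 69 CPM in control and 176, 174 and 180 CPM in the other libraries, a difference of 1.49 (adjusted p = 5.73e-07), and 1.71 in mRNA. *Atf5*, a relative of ATF4 under the same upstream reading frame control, rose by 1.42 (adjusted p = 3.13e-07), the stress-inducible cofactor *Nupr1* by 1.10 (adjusted p = 7.63e-06) and the pseudokinase *Trib3*, which restrains ATF4, by 1.08 (adjusted p = 1.56e-05). The groups were apart in every one of these genes.

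Ddit3, which encodes the ATF4 target CHOP, had 2 features in the annotation. The main one rose by 0.80 (adjusted p = 0.000152), from between 12.6 and 13.3 CPM to between 21 and 24.3 CPM, and the other (ENSMUSG00000116429) by 1.49 (adjusted p = 9.72e-06). Its mRNA differed by 3.31. *Eif2ak2*, the kinase PKR that is activated by double-stranded RNA, rose by 1.56 (adjusted p = 0.000101), with 116 CPM in library 1, 90.9 in library 2 and 56.5 in library 3 labelled *Upf2*-/-, and with 0.05 in mRNA (adjusted p = 0.85).

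Of 24 amino acid supply genes under ATF4, 16 were called higher and none lower, against 22.3% and 21.1% of all genes tested, with a median of 0.56. The glutamine transporter *Slc1a5* had 35.7, 32.5 and 40.3 CPM in control and 118, 98.7 and 103 CPM in libraries labelled *Upf2*-/-, a difference of 1.56 (adjusted p = 1.45e-06). *Shmt2*, the mitochondrial enzyme that turns serine into glycine and a folate-bound carbon, rose by 0.90 (adjusted p = 3.38e-06) and *Pck2* by 0.87 (adjusted p = 0.000155). Their mRNA differences were 0.51, 0.46 and -0.19, none past the test, and in mRNA 1 of the 24 was called higher and 2 lower, against 13.3% and 6.84% of all genes tested. Cytosolic aminoacyl-tRNA synthetases, which load tRNAs with amino acids, gave 14 of 20 genes called higher, against 22.3%, and none lower (9 with Y-linked footprints as a covariate), led by *Aars* with 0.65 (adjusted p = 7.77e-06).

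The largest differences of all were on interferon-stimulated genes. These antiviral genes are switched on by interferon signalling through a promoter element named ISRE, and their products cut, trap or block viral RNA and protein. Of 56 tested, 54 were called higher and none lower, against 22.3% and 21.1% of all genes tested, with a median difference of 3.20. In 54 of the 56 every library labelled *Upf2*-/- was above every control library. Over all genes tested, the groups did not overlap, in either direction, for 54.1%. Among called genes whose groups did not overlap and with at least 5 CPM on average, all 12 of the largest increases were members of this list. The list was chosen with earlier results of these data known and several of the 12, such as *Mx2* and *Rsad2*, reached 5 CPM only through the libraries labelled *Upf2*-/-, so this count is a description. Among those not called, *Ifi47* differed by -0.20 (adjusted p = 0.34).

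Control libraries held few footprints on these genes. *Isg15*, a ubiquitin-like modifier, had 7.57, 4.49 and 10.9 CPM in control libraries 1 to 3 and 246, 155 and 79.0 CPM in libraries 1 to 3 labelled *Upf2*-/-, a difference of 4.38 (adjusted p = 1.09e-05). *Ifit1*, which binds RNA with foreign 5′ ends, had 3.54, 1.68 and 8.20 CPM and then 186, 106 and 44.9 CPM, a difference of 4.65 (adjusted p = 4.62e-05). *Usp18*, the protease that removes ISG15 and dampens the interferon receptor, had 1.06, 1.61 and 1.98 CPM and then 79.7, 47.0 and 17.9 CPM (log2 fold change 4.93, adjusted p = 2.55e-05). The size of the increase differed between the 3 libraries, and library 1 was above library 2 and library 2 above library 3 in 55 of the 56 genes.

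The same held for the remaining antiviral effectors among the 12. *Rsad2*, which makes a chain-terminating nucleotide, had between 0.335 and 0.424 CPM in control and 17.6, 9.13 and 4.55 CPM in libraries labelled *Upf2*-/- (log2 fold change 4.74, adjusted p = 3.94e-05). *Oasl1* rose by 4.73, *Oasl2* by 4.56, *Ifit3* by 4.85, *Rtp4* by 5.03, *Ifi44* by 4.56 and the GTPase *Iigp1* by 4.46. *Mx2*, of the dynamin-like GTPase family, and *Oas1b*, of the 2′-5′ oligoadenylate synthetase family, both gave a fitted difference of 5.36. Control levels lay between 0.142 and 0.424 CPM for *Mx2* and between 0.134 and 0.424 CPM for *Oas1b*. Gencode M21 types both as polymorphic pseudogenes, not as protein-coding genes, so their footprints need not mean a working product. Their mRNA differences were 6.06 and 4.71. Without library 1 of the group labelled *Upf2*-/- 54 members were still called higher, and with Y-linked footprints as a covariate 52 were. In mRNA, 32 of 57 members were called higher and none lower, against 13.3% and 6.84% of all genes tested, with a median of 1.00, and *Isg15* differed by 1.84, *Ifit1* by 1.99 and *Iigp1* by 0.86 (adjusted p = 0.24).

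**Figure D2:**
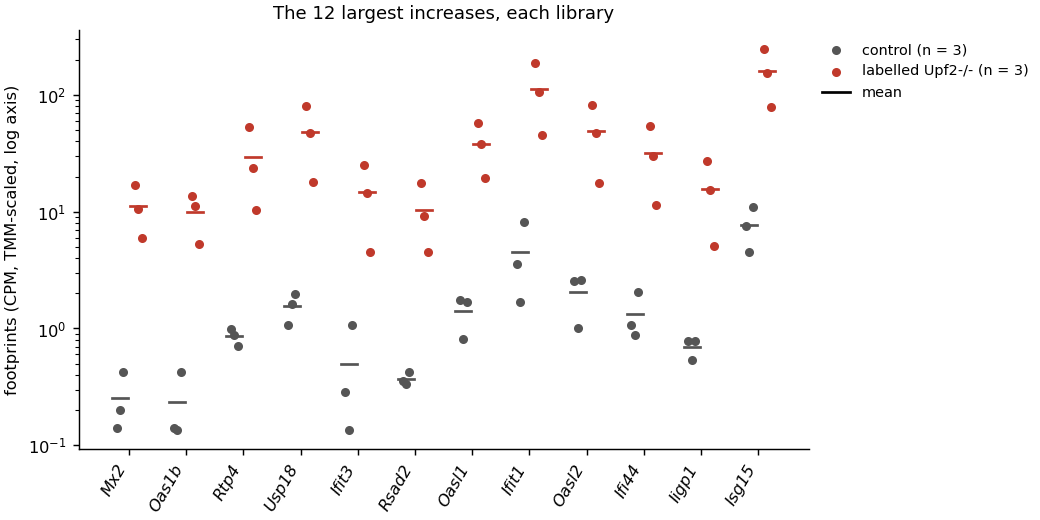
The 12 genes with the largest increase in footprints among called genes with at least 5 CPM on average, on a log axis in CPM, with 3 control libraries in grey, 3 libraries labelled *Upf2*-/- in red and bars at the means. The rule that chose these genes required groups that did not overlap, and the 3 red points are spread widely, as in *Isg15* with 246, 155 and 79.0 CPM.

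RefSeq promoter windows (GRCm38.p6) of 250 bases upstream of the start were searched on both strands for the ISRE core GAAANNGAAA. The motif was in 19 of 41 windows of interferon-stimulated genes (46.3%), against 2.50% of the 9641 tested genes with a window. Of the 12 largest increases 7 had a window and 4 of these held the motif, and the copy nearest to the start is shown for these 4 to let the motif be read in genes with large increases. Capitals mark the motif, which is read on the opposite strand in the first 3, and each sequence is written 5′ to 3′ on the strand of the gene. They lie at chr19:34583387-34583436 (plus strand, motif 122 to 113 bases upstream of the start), chr12:26456543-26456592 (minus strand, 120 to 111 bases), chr19:34640784-34640833 (plus strand, 85 to 76 bases) and chr4:156200855-156200904 (minus strand, 66 to 57 bases).
Ifit3: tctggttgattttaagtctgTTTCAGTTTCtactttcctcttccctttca
Rsad2: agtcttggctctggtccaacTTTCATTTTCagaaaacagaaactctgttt
Ifit1: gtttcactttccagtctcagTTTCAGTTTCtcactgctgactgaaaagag
Isg15: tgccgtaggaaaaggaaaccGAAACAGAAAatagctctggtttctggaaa

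Cells lacking the ribosome rescue factors PELO or HBS1L, which release ribosomes stalled on mRNA, gave their own interferon values. Against the control libraries of their pools, taken to be the same 3 control libraries sequenced again, *Isg15* differed by 6.11 in *Pelo*-/- and 3.69 in *Hbs1l*-/- footprints, and *Ifit1* by 5.91 and 3.51. Tested directly between mutant libraries, 50 of 58 interferon-stimulated genes were lower in libraries labelled *Upf2*-/- than in *Pelo*-/- libraries (13.9% of all 12385 genes tested were lower), and 12 of 55 were higher than in *Hbs1l*-/- libraries (9.13% of 11808, with 7.2% lower). *Isg15* was lower by 1.85 than in *Pelo*-/- (adjusted p = 0.0029) and differed by 0.72 from *Hbs1l*-/- (adjusted p = 0.17). The mutants stood in different pools. Between the control libraries of the same pools the median size of difference was 0.0455 and 0.0465. As these were taken to be the same libraries, the values cover the sequencing run only, not differences between embryos, cultures or library preparations. All 3 *Hbs1l*-/- libraries and 1 of the 3 *Pelo*-/- libraries lacked Y-linked footprints. In every direct contrast with *Hbs1l*-/- libraries, here and below, sex therefore cannot be told apart from genotype.

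Most genes for antigen presentation were higher, and chemokine genes went both ways, beside 22.3% higher and 21.1% lower of all genes tested. Of 15 genes for MHC class I presentation 12 were called higher (8 with Y-linked footprints as a covariate) and none lower, with a median of 0.73. The summed level of the list was between 857 and 901 CPM in control and between 693 and 1054 CPM in libraries labelled *Upf2*-/-. Library 3 with this label, at 693 CPM, lay below every control library. The class I heavy chains *H2-K1* and *H2-D1* rose by 1.22 (adjusted p = 0.000666) and 1.11 (adjusted p = 0.000809), and the immunoproteasome subunit *Psmb8* by 2.06 (adjusted p = 0.00126). Among 22 chemokines and cytokines 9 were called higher and 6 lower (7 and 4 with the covariate). *Cxcl10*, a T cell attractant, had 3.82, 2.48 and 4.17 CPM in control and 80.1, 61.6 and 29.1 CPM in libraries labelled *Upf2*-/- (log2 fold change 4.02, adjusted p = 7.77e-06), and *Ccl5* rose by 3.12 (adjusted p = 2.45e-05).

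Of 24 NF-kB genes 5 were called higher and 7 lower, against 22.3% and 21.1% of all genes tested. The higher count was 3 with the covariate, and also without control library 1 or 2 or without any library labelled *Upf2*-/-. *Icam1*, an adhesion receptor for leukocytes, rose by 0.92 (adjusted p = 2.73e-05). *Tnfaip3*, the inhibitor A20, had 41.3 ± 7.65 CPM in control and 16.7 ± 1.86 CPM in libraries labelled *Upf2*-/- (SD, n = 3), a difference of -1.29 (adjusted p = 3.91e-05). *Ptgs2*, the cyclooxygenase COX-2, fell by 1.27 (adjusted p = 9.35e-05), from between 913 and 1132 CPM to between 296 and 518 CPM.

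Most cell cycle genes were higher in footprints, and few were called in mRNA. Of 60 mitosis genes 55 were called higher and 1 lower, and of 53 DNA replication genes 44 were called higher and 2 lower (31 and 1 with the covariate, and 44 and 0 for mitosis), against 22.3% and 21.1% of all genes tested, with medians of 0.63 and 0.56. *Cenpf*, a kinetochore protein, had 66.0, 64.1 and 65.5 CPM in control and 158, 156 and 138 CPM in libraries labelled *Upf2*-/-, a difference of 1.21 (adjusted p = 1.19e-06). The mitotic phosphatase *Cdc25b* rose by 1.22 (adjusted p = 0.000152) and cyclin B1 (*Ccnb1*) by 0.95 (adjusted p = 0.000172). Among replication genes *Rpa2*, a subunit of the protein that coats single-stranded DNA, rose by 1.08 (adjusted p = 6.54e-06), the origin-binding *Orc5* by 1.07 (adjusted p = 3.65e-05) and the licensing factor *Cdt1* by 0.99 (adjusted p = 6.77e-06).

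In mRNA 1 of 60 mitosis genes was called higher and 2 lower, with a median of -0.23, and 5 of 53 replication genes were called higher and 2 lower, against 13.3% and 6.84% of all genes tested. The mRNA differences were 0.11 for *Cenpf* and -0.22 for *Ccnb1*, and 0.64 and 1.18 for *Rpa2* and *Orc5*, both of which passed the test. The difference between the assays was not tested. Compared with the other mutants directly, 4 of 60 mitosis genes were higher and 4 lower than in *Pelo*-/- libraries (12.8% and 13.9% of all genes tested), and 1 higher and 6 lower than in *Hbs1l*-/- libraries (9.13% and 7.2%). The E2F-type motif TTTNNCGC, searched on both strands, was in 10 of 44 windows of replication genes (22.7%) and 6 of 51 of mitosis genes (11.8%), against 7.46% of tested genes with a window and 9.86% of those called higher. *Gins3*, a subunit of the replicative helicase that rose by 1.05 (adjusted p = 0.000999), is shown as the one gene among the 6 named replication genes with the motif in its window, at chr8:95633498-95633545 on the plus strand, with the motif in capitals, on the opposite strand, 41 to 34 bases upstream of the start.
Gins3: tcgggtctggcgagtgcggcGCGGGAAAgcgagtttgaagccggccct

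Most genes that build ribosomes were higher, while 60S protein genes were called at shares near those of all genes tested (22.3% higher and 21.1% lower). Of 63 ribosome biogenesis genes 45 were called higher and 1 lower, with a median of 0.37. The acetyltransferase *Nat10* had 51.3, 51.5 and 48.9 CPM in control and 101, 101 and 104 CPM in libraries labelled *Upf2*-/-, a difference of 1.02 (adjusted p = 1.8e-06), and *Tsr1*, an assembly factor of the small subunit, rose by 0.89 (adjusted p = 3.12e-06). Of 45 tested 60S protein genes 8 were called higher (5 without control library 1) and 11 lower (6 with the covariate, 5 without library 1 and 6 without library 3 labelled *Upf2*-/-), and of 32 tested 40S protein genes 7 were called higher (between 5 and 10 with 1 library left out) and 3 lower (1 without control library 1 or 3 or without library 1 or 3 labelled *Upf2*-/-, and 5 without library 2). Compared directly with *Pelo*-/- libraries, 28 of 48 60S genes and 14 of 32 40S genes were lower in libraries labelled *Upf2*-/-, against 13.9% of all genes tested. *Eef1a1*, the elongation factor that brings tRNA to the ribosome, differed by -0.31 (adjusted p = 0.0154), and this call was lost with Y-linked footprints as a covariate (adjusted p = 0.1). Other mRNA decay factors gave 19 of 39 genes called higher and 6 lower (1 lower with the covariate, and 3 without control library 1 or without library 2 or 3 labelled *Upf2*-/-), and *Exosc2*, a subunit of the RNA exosome, rose by 1.01 (adjusted p = 7.83e-06).

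**Figure D3:**
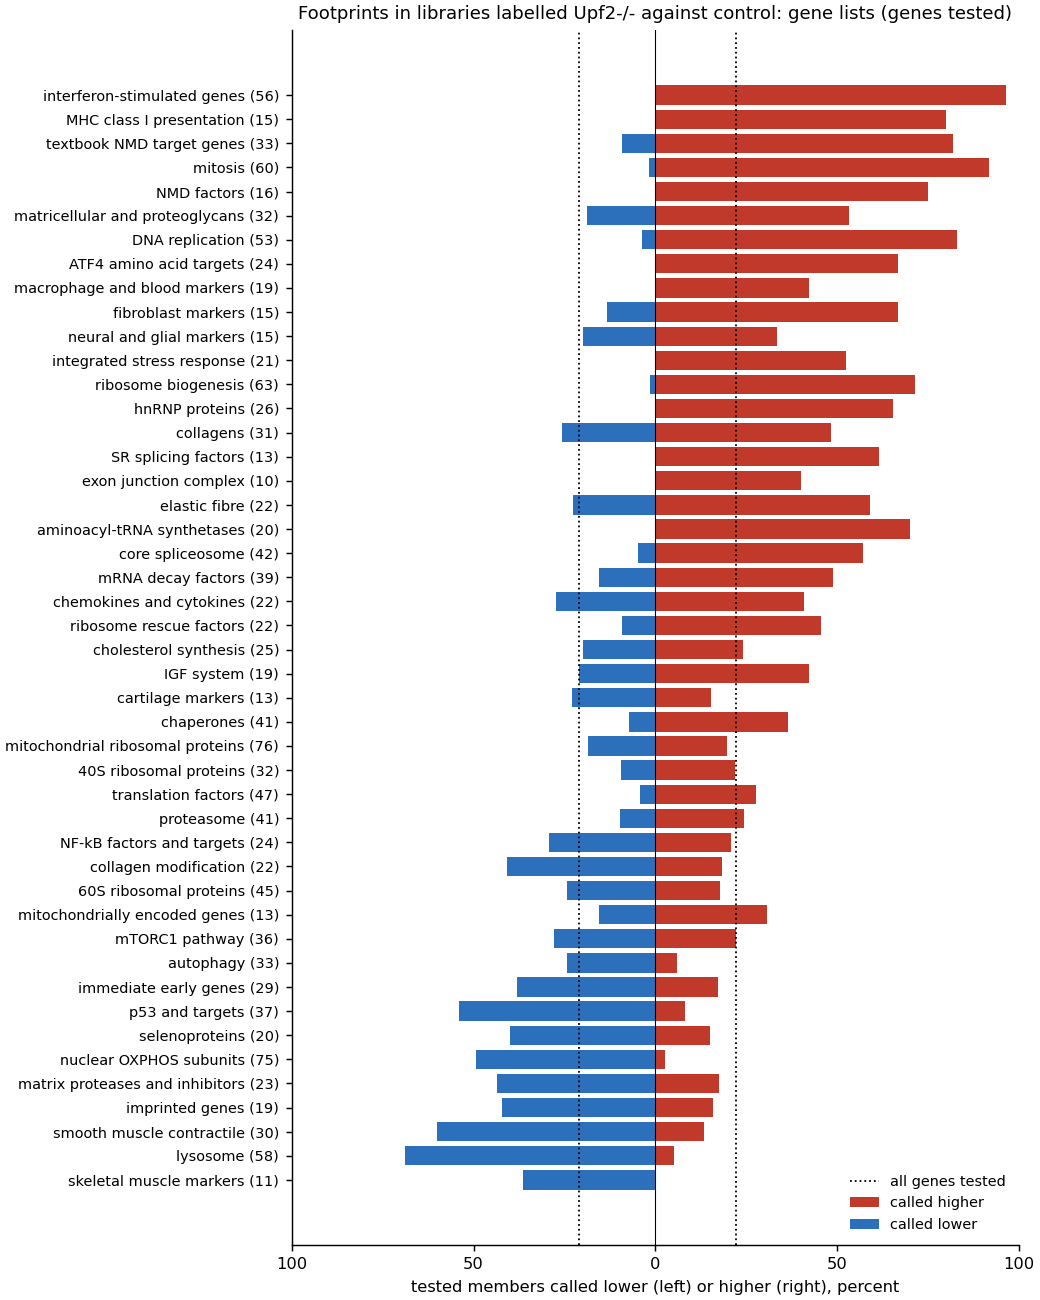
Percent of tested members called higher (red, right) or lower (blue, left) for each gene list with at least 10 genes tested, ordered by the median difference, with the number tested in brackets and dotted lines at the percentages over all genes tested, 22.3% higher and 21.1% lower. Interferon-stimulated genes, mitosis and DNA replication genes extend farthest to the right, and lysosome and smooth muscle genes farthest to the left.

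Single genes of the extracellular matrix showed large differences in both directions. *Eln*, which encodes elastin, had 171, 148 and 165 CPM in control and 1582, 1255 and 1280 CPM in libraries labelled *Upf2*-/-, an 8.51-fold higher level (log2 fold change 3.09, SE 0.10, adjusted p = 1.98e-08). *Eln* mRNA differed by -0.51 (adjusted p = 0.19), so the assays had opposite signs. In direct comparisons *Eln* was higher by 2.34 than in *Pelo*-/- libraries (adjusted p = 0.0042) and by 1.83 than in *Hbs1l*-/- libraries (adjusted p = 0.00016). Of 22 elastic fibre genes 13 were called higher and 5 lower, against 22.3% and 21.1% of all genes tested, so the lower count was near that share. *Fbn1*, the main microfibril protein, rose by 0.82 (adjusted p = 2.81e-05), while the fibulin *Efemp1* fell by 1.57 (adjusted p = 4.33e-07) and the crosslinking enzyme *Loxl2* by 1.13 (adjusted p = 6.36e-05).

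Collagen chains were called higher in 15 of 31 genes and lower in 8, against 22.3% and 21.1% of all genes tested, and the lower count was 3 with Y-linked footprints as a covariate and 5 without control library 2 or library 2 labelled *Upf2*-/-. *Col6a2*, a chain of beaded filament collagen, rose by 1.83 (adjusted p = 4.19e-06), *Col15a1* by 1.95 (adjusted p = 9.42e-07) and *Col3a1*, a fibrillar chain, by 1.46 (adjusted p = 7.43e-07). *Postn*, a matricellular protein, had 902, 633 and 986 CPM in control and 2833, 2886 and 2382 CPM in libraries labelled *Upf2*-/- (log2 fold change 1.68, adjusted p = 7.15e-06). The proteoglycans *Lum* and *Dcn* rose by 2.28 (adjusted p = 1.6e-05) and 1.46 (adjusted p = 2.08e-05), and the receptor *Pdgfra*, a fibroblast marker, by 2.08 (adjusted p = 3.08e-05). None of these genes was called in mRNA, where their differences lay between -0.55 and 0.48. The secreted growth factor binder *Igfbp3* rose by 1.92 (adjusted p = 4.13e-06) with -0.26 in mRNA.

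The largest decreases came from genes of several functions. *Krt20*, a keratin of surface epithelia, had 27.7, 33.1 and 23.1 CPM in control and 1.86, 0.895 and 2.34 CPM in libraries labelled *Upf2*-/-, a difference of -4.14 (adjusted p = 1.32e-06). *Acta1*, skeletal muscle actin, fell from between 127 and 188 CPM to between 16.1 and 27.6 CPM (log2 fold change -2.98, adjusted p = 1.5e-06). *Gng11*, a G protein gamma subunit, fell from 42.2 ± 2.28 to 5.51 ± 0.517 CPM (SD, n = 3), a difference of -2.92 (adjusted p = 1.12e-07). Every one of the 12 largest decreases had groups that did not overlap, as the naming rule required.

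Genes of vessels and their supporting cells were part of this group. *Emcn* and *Selp*, adhesion proteins of endothelium, fell by 2.92 and 2.64. Of the 6 endothelial markers tested, however, 2 were called higher, *Tek* (1.23, adjusted p = 0.0047) and *Erg* (0.97, adjusted p = 0.044), and only *Emcn* lower. These are 33.3% and 16.7% of the markers tested, against 22.3% and 21.1% of all genes tested. *Tek* and *Erg* were not called with the covariate. *Rgs5*, a G protein regulator of pericytes, fell by 2.46 from between 79.7 and 116 CPM to between 11.8 and 20.1 CPM (adjusted p = 3.16e-06). The defining endothelial genes *Pecam1* and *Cdh5* had at most 10 counts in any library, and the summed level of the endothelial list was between 330 and 397 CPM in control and between 327 and 359 CPM in the others. *Tph1*, which starts serotonin synthesis, fell by 2.79 (adjusted p = 1.9e-05), *Mogat2*, an acyltransferase of triglyceride synthesis, by 2.74 and the chemerin receptor *Gpr1* by 2.49. *Rab3b*, a GTPase of secretory vesicles, fell by 3.03, the orphan receptor *Gpr149* by 2.98 and the protease inhibitor *Tfpi2* by 2.46. Of these, the mRNA differences of *Krt20* (-1.17), *Acta1* (-0.81), *Rab3b* (-1.66), *Rgs5* (-0.89) and *Tph1* (-0.61) passed the test.

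**Figure D4:**
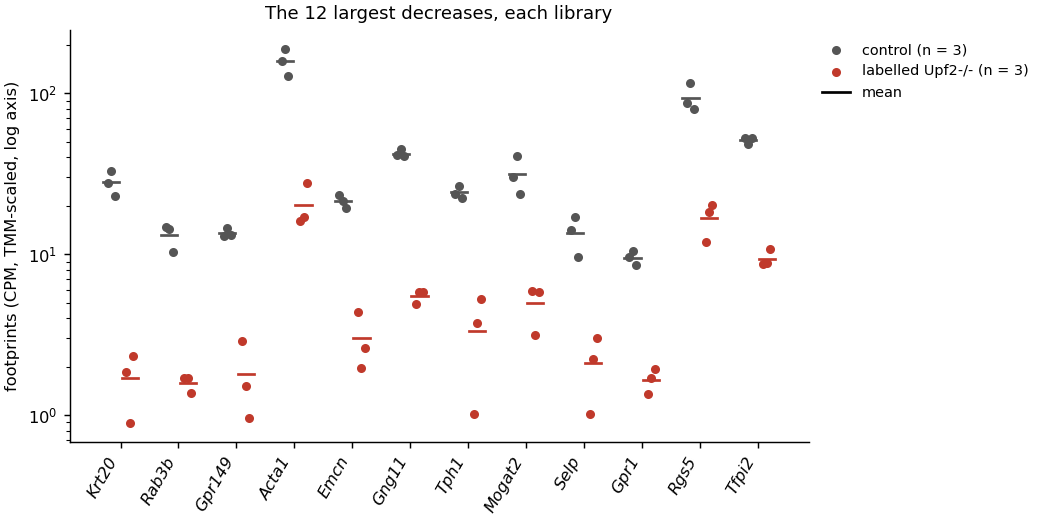
The 12 genes with the largest decrease in footprints, on a log axis in CPM, with control libraries in grey, libraries labelled *Upf2*-/- in red and bars at the means. All red points lie below the grey points of their gene, and *Krt20* has the widest gap, from between 23.1 and 33.1 CPM to between 0.895 and 2.34 CPM.

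Several of these genes were lower in these libraries than in the other mutants. All 3 *Hbs1l*-/- libraries lacked Y-linked footprints, so sex and genotype cannot be told apart in the contrasts with them. *Gpr149* was lower by 2.89 than in *Pelo*-/- libraries and by 2.76 than in *Hbs1l*-/- libraries, and *Rab3b* by 2.24 and 2.74. *Gng11* was lower by 1.51 and 1.70 and *Tfpi2* by 1.13 and 1.62, with adjusted p between 1.55e-05 and 0.0093 over these 8 contrasts. *Emcn*, *Tph1*, *Mogat2*, *Selp* and *Gpr1* did not pass either contrast. The NMD factors also differed in these contrasts, with 8 of 16 called higher than in *Pelo*-/- libraries and 8 of 16 higher than in *Hbs1l*-/- libraries, against 12.8% and 9.13% of all genes tested, and 1, *Etf1* (-0.19, adjusted p = 0.0404), lower than in *Hbs1l*-/- libraries. *Smg9* was higher by 1.42 and 1.45, *Smg1* by 1.10 and 1.02, *Upf2* by 1.11 and 1.04 and *Upf1* by 0.86 and 0.83. *Gadd45g* was higher by 2.33 and 2.57, on differences from control of -0.34 in *Pelo*-/- and -0.60 in *Hbs1l*-/- libraries, and *Nupr1* by 1.76 and 2.29. *Nupr1* likewise differed from control by -0.63 in *Pelo*-/- and -1.14 in *Hbs1l*-/- libraries.

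Lysosomal genes formed the largest group of decreases. Of 58 tested 40 were called lower and 3 higher (1 higher with the covariate), against 21.1% and 22.3% of all genes tested, with a median of -0.42. The cysteine protease *Ctsh* had 28.9 ± 1.63 CPM in control and 12.7 ± 1.09 CPM in libraries labelled *Upf2*-/- (SD, n = 3), a difference of -1.17 (adjusted p = 1.5e-05). *Ctsl*, a related protease, fell by 0.73 (adjusted p = 1.52e-05) and *Gm2a*, the activator of ganglioside breakdown, by 0.83 (adjusted p = 0.000158). *Ctss*, a protease of antigen-presenting cells, went the other way by 0.80 (adjusted p = 0.00403), a call lost with Y-linked footprints as a covariate. In mRNA 6 of the 58 were called lower and 4 higher, against 6.84% and 13.3% of all genes tested. The motif TCACGTG, the E-box of the factor TFEB, was in 11 of 46 windows of these genes (23.9%) on either strand. It was in 5.05% of tested genes with a window, in 6.01% of those called lower and in 2 of 26 windows of autophagy genes (7.69%).

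Of 37 genes of the p53 list 20 were called lower, against 21.1% of all genes tested, and 3 higher (2 with the covariate), with a median of -0.19. *Perp*, a junction protein, had 79.8, 110 and 66.8 CPM in control and 27.3, 25.0 and 32.7 CPM in libraries labelled *Upf2*-/-, a difference of -1.60 (adjusted p = 3.11e-05). The apoptosis gene *Pmaip1* fell by 1.48 (adjusted p = 3.92e-05) and *Ccng1* by 1.11 (adjusted p = 6.77e-07). In mRNA 11 of the 37 were called higher and 3 lower (13.3% and 6.84% of all genes tested), and *Pmaip1* differed by 0.21 (adjusted p = 0.59).

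Of 75 respiratory chain genes encoded in the nucleus 37 were called lower, against 21.1% of all genes tested, 2 were called higher and 36 were not called, with a median of -0.22. The lower count was 23 without control library 1, 24 without library 1 labelled *Upf2*-/- and 19 with Y-linked footprints as a covariate. *Ndufv3*, a subunit of complex I, fell by 0.72 (adjusted p = 4.18e-05) and *Cox7a2*, a subunit of complex IV, by 0.68 (adjusted p = 7.97e-05). Contractile genes of smooth muscle gave 18 of 30 called lower and 4 higher, against 21.1% and 22.3%, with 10 lower under the covariate. *Acta2*, smooth muscle actin and a mark of myofibroblasts, fell from between 14374 and 16447 CPM to between 7410 and 10018 CPM (log2 fold change -0.82, adjusted p = 9.09e-05), and *Actg2* and *Tpm1* fell by 0.84 and 0.75.

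Markers of other cell types were low beside those of fibroblasts. Of 15 fibroblast markers 10 were called higher and 2 lower, with a median of 0.47. The summed level of 19 macrophage and blood markers was between 193 and 263 CPM in control and between 262 and 323 CPM in libraries labelled *Upf2*-/-, and 8 were called higher and none lower, against 22.3% and 21.1% of all genes tested. Among them *Csf1r* differed by 0.56 (adjusted p = 0.0054), *C1qb* by 0.54 (adjusted p = 0.00401) and *Tyrobp* by 0.86 (adjusted p = 0.00354), but none of the 19 was called with Y-linked footprints as a covariate, and 4 were without library 2 labelled *Upf2*-/-. The globin genes *Hbb-bt*, *Hba-a1* and *Hbb-y*, had 0 counts in all 6 libraries. The epithelial list summed to between 145 and 193 CPM in control and between 89.5 and 94.3 CPM in the others. Of its 4 members tested 3 were called lower. The skeletal muscle list summed to between 336 and 476 and between 222 and 296 CPM. Of its 11 members tested 4 were called lower and none higher (1 and 1 with the covariate). The cartilage list summed to between 1088 and 1424 and between 667 and 922 CPM. Its median was 0.12, with 2 of 13 called higher and 3 lower. The neural and glial list summed to between 539 and 714 and between 409 and 506 CPM. Of its 15 members tested 5 were called higher and 3 lower (2 and 1 with the covariate). The skeletal muscle sum includes *Acta1* itself, at between 127 and 188 CPM in control and between 16.1 and 27.6 CPM in the others. That sum therefore follows the fall of *Acta1* and gives no separate value for muscle cells. The part of other cell types in the lower levels of *Krt20*, *Acta1* and the contractile genes was not tested. A lower share of such cells cannot be told apart from fewer footprints per cell.

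Footprints and mRNA were set side by side over all genes. Of 5233 genes called in footprints and tested in mRNA, 3731 (71.3%) had the same sign in mRNA, and 1403 were called in both assays. Of those, 1297 (92.4%) had the same direction, 49 were higher in footprints and lower in mRNA, and 57 were the reverse. Across the 12057 genes tested in both, which are not independent replicates, the Pearson correlation of the differences was 0.42. Among single genes, *Iigp1* had 4.46 in footprints and 0.86 in mRNA and *Mx2* had 5.36 and 6.06, while *Gadd45g* (1.98 and 3.83) and Ddit3 (0.80 and 3.31) had the larger difference in mRNA.

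**Figure D5:**
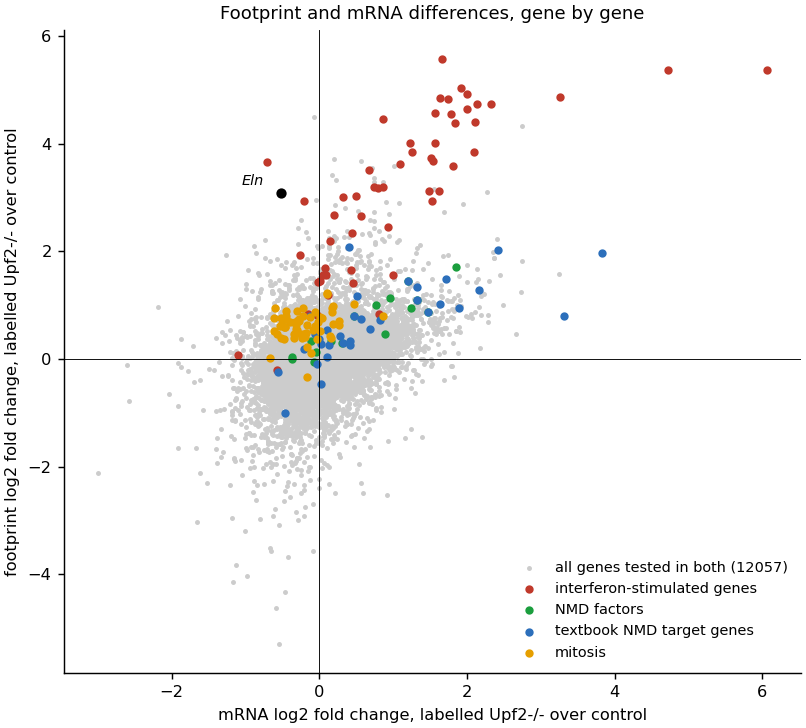
Log2 fold change in mRNA (horizontal axis) and in footprints (vertical axis), libraries labelled *Upf2*-/- over control, for 12057 genes tested in both assays, with 4 gene lists and *Eln* in colour. Interferon-stimulated genes lie high on the vertical axis, 59 of 60 mitosis genes lie above 0 for footprints, with a median mRNA difference of -0.23, and *Eln* sits at 3.09 in footprints and -0.51 in mRNA.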

How the data were processed

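Ribosome footprints were measured in 3 MEF libraries labelled *Upf2*-/- and 3 control libraries, of between 5782990 and 15602201 footprints in genes, which sets the precision for low genes. Per the labels and the study's methods, the authors sequenced gel-purified fragments of 15 to 34 nucleotides, clipped adapters, removed structural RNA with Bowtie2 2.2.3, mapped to mm10 with HISAT2 2.1.0 and counted footprints on Gencode M24 coding sequences with featureCounts; the deposited footprint values are raw counts. For mRNA the authors deposited estimated counts per transcript from kallisto 0.42.4, which were summed per gene and rounded. The footprints carry no molecular identifiers.

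Here, genes were tested with edgeR 4.0.16 (R 4.3.3) after its default filter, with TMM factors, the quasi-likelihood test and Benjamini-Hochberg adjustment (threshold 0.05), leaving out 100 histone symbols as the study did. DESeq2 1.42.0, other scalings and filters, thinning and each library left out were alternatives. All 22438 genes had a symbol, and lists use 1 feature per symbol. Mutant libraries were compared directly, since the controls of the pools were taken to be the same libraries. The comparison and the gene lists were chosen with earlier results of these data known. Named genes are *Upf2*, the NMD factors, the 12 largest changes each way among called genes with groups that did not overlap and at least 5 CPM on average, and up to 6 called members of each list by size, with defining members that were not called. *Gadd45a*, *Gadd45b*, *Uhmk1*, *Cdkn1a*, *Atp5pb*, *Azin1*, *Oaz1*, *Map3k14*, Ddit3 and *Ifi47* were named after their values were seen. Some members of the lists are counted but not reported by name here. Coordinates are from Gencode M21 and promoter sequences from RefSeq (GRCm38.p6, 27025 symbols).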

Additional observations from a re-analysis of the deposited data

Results flagged for a closer look

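The effect of genotype on named genes was compared between mutants by testing the libraries labelled *Upf2*-/- directly against the other mutant libraries, and the following differences passed an adjusted p of 0.05 in edgeR's test (log2, libraries labelled *Upf2*-/- minus the other). *Upf2* was higher by 1.11 than in *Pelo*-/- and by 1.04 than in *Hbs1l*-/- libraries. Relative to *Pelo*-/- libraries, 10 of the 12 largest increases were lower (*Mx2* and *Oas1b* did not pass the test), with -1.68 for *Rtp4*, -2.02 for *Usp18*, -1.84 for *Ifit3*, -1.51 for *Rsad2*, -1.001 for *Oasl1*, -1.41 for *Ifit1*, -2.07 for *Oasl2*, -2.20 for *Ifi44*, -2.13 for *Iigp1* and -1.85 for *Isg15*. Relative to *Hbs1l*-/- libraries, 5 of the 12 were higher, with 2.87 for *Mx2*, 2.26 for *Oas1b*, 1.499 for *Ifit3*, 1.64 for *Rsad2* and 1.66 for *Oasl1*.

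Among the 12 largest decreases, *Rab3b* differed by -2.24 from *Pelo*-/- and -2.74 from *Hbs1l*-/- libraries, *Gpr149* by -2.89 and -2.76, *Gng11* by -1.51 and -1.70, and *Tfpi2* by -1.13 and -1.62. *Acta1* differed by -0.94 from *Pelo*-/- libraries, *Krt20* differed by -2.51 from *Hbs1l*-/- libraries, and *Rgs5* was 1.55 higher than in *Pelo*-/- libraries. The mutants stood in different sequencing pools. Between the control libraries of those pools the median size of difference over all genes was 0.0455 for the *Pelo* and 0.0465 for the *Hbs1l* pool. These controls were taken to be the same libraries sequenced again, so the values cover the sequencing run only, not differences between embryos, cultures or library preparations. All 3 *Hbs1l*-/- libraries lacked Y-linked footprints, so sex and genotype cannot be told apart in the contrasts with them.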

How the results depend on the processing

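The number of genes called in footprints was 5279, and was 3406 with Y-linked footprints as a covariate and 3009 with control library 3 as the only control, both chosen after seeing the data. It lay between 4174 and 5136 with 1 library left out. The mRNA count of 3207 lay between 1827 and 3246 with 1 library left out, lowest without control library 2, 1873 without control library 3 and 2007 without library 2 labelled *Upf2*-/-. The count of 1928 against *Hbs1l*-/- lay between 1203 and 1592, lowest without library 2 labelled *Upf2*-/-. The other planned settings kept each count within 1.5 times. *Upf2* stayed higher, by between 0.98 and 1.15, in every setting run. Of 294 named genes that were called, 232 were called in every setting run that gave a value. With 1 library left out, signs changed for *Etf1* (between -0.078 and 0.067, positive without control library 3 and, at 0.0073, without library 3 labelled *Upf2*-/-) and *Smg8* (between -0.104 and 0.024, positive without library 2 labelled *Upf2*-/-), neither of them called. List medians changed sign for neural and glial markers (-0.43) and cartilage markers (-0.30) at a minimum of 5 CPM on average, which leaves fewer genes, for cartilage markers without control library 2 (-0.11, range between -0.11 and 0.39 with 1 library left out) and for mitochondrially encoded genes without library 1 labelled *Upf2*-/- (0.12, range between -0.28 and 0.12), and the cause was not tested. Medians near 0 also changed sign in some settings for 40S, 60S and mitochondrial ribosomal proteins, the proteasome and the polyamine list.

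Replicate numbers are shared between groups only as numbers. Same-numbered libraries had correlations of deviations of 0.03, -0.08 and -0.20, and not every library correlated best with its own number, so the numbers were not taken to pair the libraries. With the replicate block 4580 genes were called. Depth limits genes near or under 1 CPM in the shallowest library, and thinning all libraries to its size gave 4525 called genes.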

Other observations

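Other gene groups are given beside the shares of all genes tested in footprints, 22.3% higher and 21.1% lower. Of 41 chaperones 15 were called higher and 3 lower (10 and 1 with Y-linked footprints as a covariate), with the cytosolic *Hspa1b* at 1.18 (adjusted p = 0.000169), the endoplasmic reticulum chaperone *Hspa5* at 0.50 (adjusted p = 6.25e-05) and the small heat shock protein *Hspb1* at -1.24 (adjusted p = 2.45e-05). Sterol genes gave 6 of 25 called higher and 5 lower (2 and 6 with the covariate), near those shares. In mRNA 16 of the 25 sterol genes were called lower, against 6.84% of all genes tested, and none higher.

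Mitochondrial ribosomal protein genes gave 15 of 76 called higher and 14 lower, also near the shares of all genes tested. These counts were 7 and 5 with the covariate, 7 and 8 without control library 1, and 10 and 8 without library 1 labelled *Upf2*-/-. Among them *Mrpl9* differed by 1.01 (adjusted p = 2.69e-06) and by 1.03 in mRNA. Selenoproteins gave 3 of 20 called higher and 8 lower (3 and 4 with the covariate), with the lipid peroxidase *Gpx4* at -1.05 (adjusted p = 0.000237). In the polyamine list *Azin2* fell by 1.48 (adjusted p = 2.45e-05). Among growth regulators *Igf2* rose by 0.73 (adjusted p = 4.46e-05) and the imprinted Notch ligand *Dlk1* by 1.41 (adjusted p = 3.66e-06), with -0.16 and -0.07 in mRNA. *Mmp9*, a gelatinase, fell by 1.51 (adjusted p = 5.91e-05) and had 1.16 in *Pelo*-/- cells against control.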
